A study of Mus musculus with 25 samples.

Results

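The 40 genes described here carry out DNA replication and cell division. They were taken by symbol, Ensembl identifiers of the count files being joined to mouse gene symbols, and each symbol matched 1 of the 54752 genes listed. The 12 S phase genes are the 6 subunits of the MCM2-7 helicase, Pcna, Rrm2, Tyms, Tk1, E2f1 and E2f8, and the other 28 act in G2 and mitosis. Those are Mki67 and Top2a of chromosome structure, the cyclins and kinase Cdk1, Ccna2, Ccnb1 and Ccnb2, the regulators Foxm1 and Melk, the chromosomal passengers Birc5, Aurkb and Cdca8, the spindle assembly factors Aurka, Tpx2, Plk1, Hmmr, Nusap1 and Stmn1, the checkpoint and anaphase-promoting complex genes Bub1, Bub1b, Cdc20 and Ube2c, the kinetochore proteins Cenpe and Cenpf, and the motors and cytokinesis proteins Kif11, Kif20a, Kif4, Kif23 and Prc1. RNA was sequenced from epididymal (eWAT) and inguinal (iWAT) white adipose tissue of male C57BL/6N mice in 25 libraries. In eWAT these were 4 of wild type mice on a normal diet (ND), 5 of wild type mice on a high-fat diet (HFD) and 5 of Acod1-/- mice on the HFD, and in iWAT 3, 5 and 3. Both diets began when mice were 5 weeks old, the HFD having 60% of calories from fat, and lasted 16 weeks, or 17 and 18 weeks as labelled for Acod1-/- iWAT libraries 2 and 3. The Acod1-/- mice were of the strain C57BL/6N-Acod1em1(IMPC)J/J, in which the gene is disrupted in every cell, and wild type mice were littermates caged singly as they were. No Acod1-/- group on ND was analysed here, so the genotype was compared on the HFD alone. The labels number the libraries of a group without saying whether a mouse gave both depots, so p-values measure the spread between these libraries.

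Dividing cells copy their DNA in S phase, when MCM2-7 unwinds it, PCNA clamps the polymerases to it and thymidylate synthase, thymidine kinase and ribonucleotide reductase supply nucleotides. E2F factors switch on the S phase genes, and the later wave of G2 and mitosis genes is read from promoters with CCAAT and CHR elements. Mature adipocytes rarely divide, so in whole fat depots these transcripts mostly come from the other cells, among them macrophages, which are known to multiply in fat on a high-fat diet, and from progenitors.

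Depth ran from 31.41 to 52.34 M counted reads (median 42.09 M). All 40 genes passed the filter on low counts in every fit, which asked for a mean of 1 CPM or more. That mean was over all libraries fitted, so a gene could pass through a group where it was high. In ND eWAT 5 genes had a group mean under 1 CPM (E2f8, Melk, Hmmr, Bub1 and Kif4, 0.569 to 0.957). Bub1 was also under it in Acod1-/- iWAT, at 0.92. For the filter, the CPM was a gene's count scaled to the size of its library. The CPM values printed here were also scaled by TMM, a normalization between libraries, over all 25 libraries. Acod1 itself had at most 9 counts in any library of either genotype and so checks no label. Of the adipocyte markers 10 of 10 had a mean of at least 1 CPM in each of the 6 groups. Some libraries stood apart in markers of other tissues, in CPM summed over each list. Epididymis and germ cell genes reached 7700 in ND eWAT library 2 against 3.97 to 60.7 in the other ND eWAT libraries, skeletal muscle genes 7850 in ND iWAT library 1 and skin epithelium genes 574 in Acod1-/- iWAT library 2. Lymphocyte and lymph node genes were high in all 3 ND iWAT libraries, as given with the iWAT results.

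The promoters of these genes are shown first because the S phase and the mitosis genes are described apart below, and are known to be read from different promoter elements. The RefSeq promoter table (GRCm38.p6, 250 bases before to 50 after each start) held 33 of the 40 genes in 35 promoters. Aurkb, Ccna2, Stmn1, Kif20a, Tpx2, Mcm4 and Foxm1 were not matched. Both strands were searched for an E2F site (TTCCCGC with its variant TTCGCGC, and the form TTGCCGC with its variant TTGGCGC), a CHR element (TTTGAA or TTCGAA) and a CCAAT box, and a CCAAT box on the opposite strand (ATTGG) can share 4 bases with TTGGCGC. An E2F site was found in 58.3% of the 12 S phase promoters and 17.4% of the 23 mitosis promoters, against 9.57% of all 32851 promoters. The CHR letters were found in 25% and 78.3% respectively, against 19.2% of all promoters. CCAAT was found in 75.0% and 87.0%, against 37.4%. The stretch just before the start of 5 genes is printed 5′ to 3′ on the gene's strand, with these letters or their reverse complements in capitals. They were chosen as 2 helicase subunits with E2F sites and 3 mitosis genes with CHR elements, of which Cdk1 and Mki67 also hold an E2F site.
Mcm5 (chr8:75109294-75109508, plus strand): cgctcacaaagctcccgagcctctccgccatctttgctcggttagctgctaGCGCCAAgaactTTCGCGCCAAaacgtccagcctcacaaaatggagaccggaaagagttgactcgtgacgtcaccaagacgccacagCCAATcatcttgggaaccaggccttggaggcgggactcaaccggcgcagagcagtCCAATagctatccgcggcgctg
Mcm6 (chr1:128359706-128359920, minus strand): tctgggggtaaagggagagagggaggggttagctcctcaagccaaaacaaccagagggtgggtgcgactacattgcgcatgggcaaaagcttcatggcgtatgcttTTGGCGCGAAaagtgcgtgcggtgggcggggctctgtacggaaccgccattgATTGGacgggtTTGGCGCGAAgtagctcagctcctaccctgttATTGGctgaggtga
Cdk1 (chr10:69352913-69353127, minus strand): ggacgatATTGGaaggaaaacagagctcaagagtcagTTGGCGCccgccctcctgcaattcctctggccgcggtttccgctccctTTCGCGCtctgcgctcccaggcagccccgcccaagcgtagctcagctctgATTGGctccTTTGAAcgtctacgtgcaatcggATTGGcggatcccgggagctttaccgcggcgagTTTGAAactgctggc
Mki67 (chr7:135716380-135716594, minus strand): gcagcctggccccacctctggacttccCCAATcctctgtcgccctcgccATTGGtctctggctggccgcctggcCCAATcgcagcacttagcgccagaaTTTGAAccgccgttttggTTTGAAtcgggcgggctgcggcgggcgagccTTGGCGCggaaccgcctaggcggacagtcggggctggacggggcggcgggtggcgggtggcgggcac
Top2a (chr11:99024190-99024404, minus strand): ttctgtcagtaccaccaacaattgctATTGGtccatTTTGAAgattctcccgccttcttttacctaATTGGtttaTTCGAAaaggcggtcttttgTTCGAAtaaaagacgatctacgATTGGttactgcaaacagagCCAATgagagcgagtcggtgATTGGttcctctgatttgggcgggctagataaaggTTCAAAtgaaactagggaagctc
A match to such short letters is a description of the window, not a bound site. The genes they precede are Mcm5 (ENSMUSG00000005410, chromosome 8, 75109569 to 75128439), Mcm6 (ENSMUSG00000026355, chromosome 1, 128331590 to 128359664), Cdk1 (ENSMUSG00000019942, chromosome 10, 69335146 to 69352938), Mki67 (ENSMUSG00000031004, chromosome 7, 135689784 to 135716361) and Top2a (ENSMUSG00000020914, chromosome 11, 98992943 to 99024189) in the GENCODE annotation, whose start sites can differ from RefSeq's by some bases.

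Per length of transcript, the deposited FPKM summed over the 12 S phase genes were 42.5 to 48.4 in ND eWAT (median 44.8, n = 4), 62.9 to 152.0 in HFD wild type eWAT (median 91.9, n = 5) and 41.7 to 66.5 in HFD Acod1-/- eWAT (median 45.6, n = 5). In iWAT they were 56.8 to 76.6 on ND (median 66.5, n = 3), 45.2 to 57.9 in HFD wild type (median 51.3, n = 5) and 43.3 to 60.2 in HFD Acod1-/- libraries (median 44.6, n = 3). Wild type HFD eWAT thus lay above ND eWAT without overlap, whereas ND iWAT had the highest median of the iWAT groups. Summed over the 28 mitosis genes, the FPKM were 15.9 to 25.9 (median 19.9), 52.2 to 161.0 (median 89.0) and 22.2 to 61.6 (median 25.1) in eWAT, in the same order. In iWAT they were 29.6 to 41.6 (median 37.8), 27.5 to 52.9 (median 38) and 24.2 to 51.5 (median 33.5), 3 ranges that overlap. Stmn1 weighed most in the mitosis sum. Its mean was 32.1 of a mean sum of 90.5 FPKM in HFD wild type eWAT, and 4.82 of 20.4 in ND eWAT. Pcna had the highest mean FPKM of the 40 genes in each group, 19 to 42.4, and Cenpf the lowest, 0.106 to 0.348. By group mean in CPM, 37 of the 40 genes were highest in HFD wild type eWAT and 35 were lowest in ND eWAT.

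**Figure D1:**
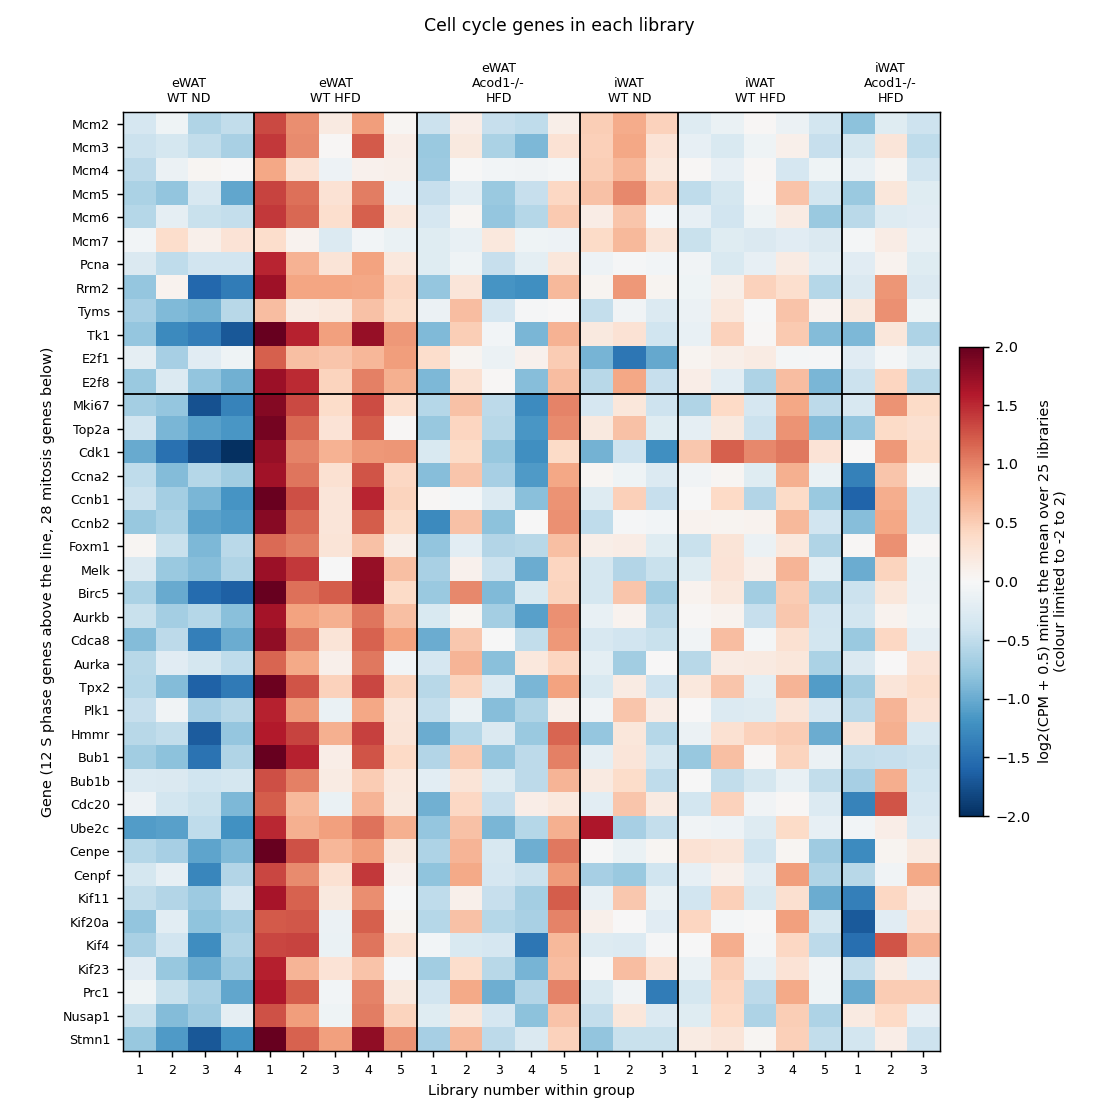
Each row is a gene and each column a library, coloured by log2(CPM + 0.5) minus the gene's mean over the 25 libraries, with the 12 S phase genes above the horizontal line and the 28 mitosis genes below. HFD wild type eWAT library 1 is the darkest red column, and it was the highest of all 25 libraries for 32 of the 40 genes.

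The diet comparison in eWAT asks how the HFD altered these genes in visceral fat of wild type mice. Of the 40 genes, 38 rose and none fell at an adjusted p under 0.1, against 24.8% of all 14936 genes tested that rose and 26.9% that fell. The median log2 fold change was 1.31 over the S phase genes (10 of 12 rose) and 2.05 over the mitosis genes (28 of 28 rose), against -0.038 over all genes tested. The 2 genes not called were the helicase subunits Mcm4 (log2 fold change 0.41, SE 0.20, adjusted p = 0.111) and Mcm7 (-0.17, SE 0.14, adjusted p = 0.343). In 36 of the 40 genes every HFD library was above every ND library, against 17.2% of all genes tested. In whole tissue, a change in the number of cells of a type and a change in RNA per cell cannot be told apart.

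Among the S phase genes, Tk1, which phosphorylates thymidine for DNA synthesis, changed most. Its CPM was 2.54, 1.65, 1.49 and 1.11 in the 4 ND libraries and 21, 14.7, 8.72, 16.9 and 8.95 in the 5 HFD wild type libraries, in the order of their numbers, a log2 fold change of 3.05, SE 0.45, adjusted p = 0.000475. Every HFD library lay above every ND library, with library 1 highest and libraries 3 and 5 lowest. Values in parentheses after the CPM are the log2 fold change, its SE and the adjusted p. E2f1, a transcription factor that drives entry into S phase, was at 11.4, 8.03, 11 and 12.3 CPM on ND and 30.6, 20, 19.3, 21 and 23.7 on HFD (1.10, SE 0.18, adjusted p = 0.000784). Tyms, the thymidylate synthase, was at 5.19, 4.4, 4.18 and 5.62 CPM on ND and 13.3, 9.57, 9.98, 13.1 and 11.1 on HFD (1.24, SE 0.21, adjusted p = 0.000867). The groups did not overlap in either gene, and for Tyms the HFD libraries lay close together, with an SD of 1.73 around a mean of 11.4 CPM.

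The replication clamp Pcna was at 47.1, 40.5, 44.2 and 44 CPM on ND and 166, 93.9, 69.1, 101 and 66.8 on HFD, a log2 fold change of 1.18, SE 0.23, adjusted p = 0.00195. Mcm5, a helicase subunit, was at 5.93, 5.23, 7.51 and 4.36 CPM on ND and 25, 20.8, 11.6, 19.8 and 8.73 on HFD (1.58, SE 0.33, adjusted p = 0.00247). In both genes HFD libraries 1, 2 and 4 were the upper 3, and libraries 3 and 5 lay nearest to ND. Rrm2, the regulated subunit of ribonucleotide reductase, was at 3.49, 6.71, 1.79 and 2.08 CPM on ND and 21.6, 11.3, 11.3, 11.2 and 8.59 on HFD (1.86, SE 0.51, adjusted p = 0.0112). HFD library 1 stood out here, and the other 4 lay between 8.59 and 11.3 CPM. Of the remaining S phase genes Mcm2, Mcm3, Mcm6 and E2f8, a repressor of the E2F family, rose by log2 fold changes of 1.16, 1.38, 1.38 and 2.48. E2f8 rose from a mean of only 0.614 CPM on ND.

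Among the mitosis genes the smallest adjusted p belonged to Stmn1, which destabilizes microtubules and is also expressed in cells that do not divide. Its CPM was 11.9, 9.03, 5.97 and 8.54 on ND and 108, 47, 36.2, 70.8 and 38.5 on HFD (2.76, SE 0.39, adjusted p = 0.000389). Cdk1, the kinase that starts mitosis, was at 2.9, 1.93, 1.51 and 1.17 CPM on ND and 22.5, 13.1, 10.6, 12 and 12.2 on HFD (2.90, SE 0.42, adjusted p = 0.000409), and Birc5, the survivin subunit of the chromosomal passenger complex, at 2.54, 1.82, 1.11 and 1.01 and 21.1, 9.61, 10.3, 15.3 and 5.63 CPM (2.93, SE 0.52, adjusted p = 0.00108). The folds were 6.80, 7.49 and 7.63, and in each of the 3 genes the groups were apart.

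Ccnb1, the cyclin B1 partner of CDK1, was at 2.24, 1.82, 1.46 and 1.13 CPM on ND and 14, 8.49, 3.86, 10.1 and 4.54 on HFD (2.30, SE 0.46, adjusted p = 0.00202). Mki67, the Ki-67 protein that coats mitotic chromosomes and marks cycling cells, was at 10.5, 9.81, 4.74 and 6.5 CPM on ND and 62.2, 43.3, 22.3, 43.1 and 21.8 on HFD (2.29, SE 0.48, adjusted p = 0.00268). Top2a, the topoisomerase that untangles sister chromatids, was at 8.29, 5.62, 4.91 and 4.63 and 42.8, 24.9, 13.3, 26.1 and 11.2 CPM (2.01, SE 0.49, adjusted p = 0.00572). HFD library 1 was highest and libraries 3 and 5 were lowest in Mki67 and Top2a, and library 1 was the highest HFD library for 36 of the 40 genes. By role, the mitotic cyclins and kinase (4 of 4 rose, median 2.31), the chromosomal passenger complex (3 of 3, median 2.26), spindle assembly factors (6 of 6, median 1.95), the spindle checkpoint and anaphase-promoting complex (4 of 4, median 1.67), kinetochore proteins (2 of 2, median 1.99) and spindle motors and cytokinesis proteins (5 of 5, median 1.64) went the same way. Foxm1, a transcription factor of the mitosis genes, rose by 1.25 and Melk by 2.31. Bub1, a checkpoint kinase, rose by 2.86, and the least change was in Bub1b, by 1.12. Melk and Bub1 rose from low ND means, 0.957 and 0.569 CPM.

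Genes of the same processes outside the 40 were counted too. Of 60 other S phase genes tested, 35 rose and 7 fell, the smallest adjusted p being those of Gmnn (log2 fold change 2.14), Mcm10 (2.95) and Cdt1 (2.16), all of replication licensing and start. Of 61 other G2 and mitosis genes, 44 rose and 3 fell, led by Cks2 (1.49), Cenpa (2.04) and Cdca3 (2.23). Among 9 G1 cyclins and kinases 4 rose and 1 fell, and among 21 cell cycle brakes 6 rose and 6 fell, Btg1 by a decrease of 0.91 and Cdkn2b by an increase of 1.40 on the log2 scale. Against the 24.8% of all genes tested that rose and 26.9% that fell, the counts for the brakes are near the shares of all genes.

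Macrophage markers moved with these genes. The CPM summed over 13 macrophage markers was 690 to 1140 in ND eWAT and 1670 to 5470 in HFD wild type eWAT (11 rose, 2 fell), and over 8 lipid-associated macrophage markers 142 to 467 and 1120 to 5060 (8 rose). None of these markers was at 0 throughout a group. HFD library 1, highest for most cell cycle genes, was also highest for both marker sums, and its adipocyte marker sum, 21300 CPM, was the lowest of the 25 libraries. Adipose progenitor markers were at 279 to 457 CPM on ND and 471 to 707 on HFD (5 of the 7 tested rose), and T cell markers at 7.96 to 13.2 and 20.4 to 42 CPM (4 of the 8 tested rose). Endothelial markers fell in 5 of 7, red blood cell markers in 5 of 5 and adipocyte markers in 6 of 10. The part of any of these cell types in the result was not tested. All ND libraries carry 1 header number series of the files and 4 of 5 HFD libraries the other, and with the series as a term 36 genes rose, Aurka and Cdc20 no longer being called. In each HFD group only 1 library carries the series of the ND libraries. The term thus rests on few libraries and can hardly part the series from the diet. Leaving out each library in turn gave 38 or 39 genes, with 38 without HFD library 1.

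**Figure D2:**
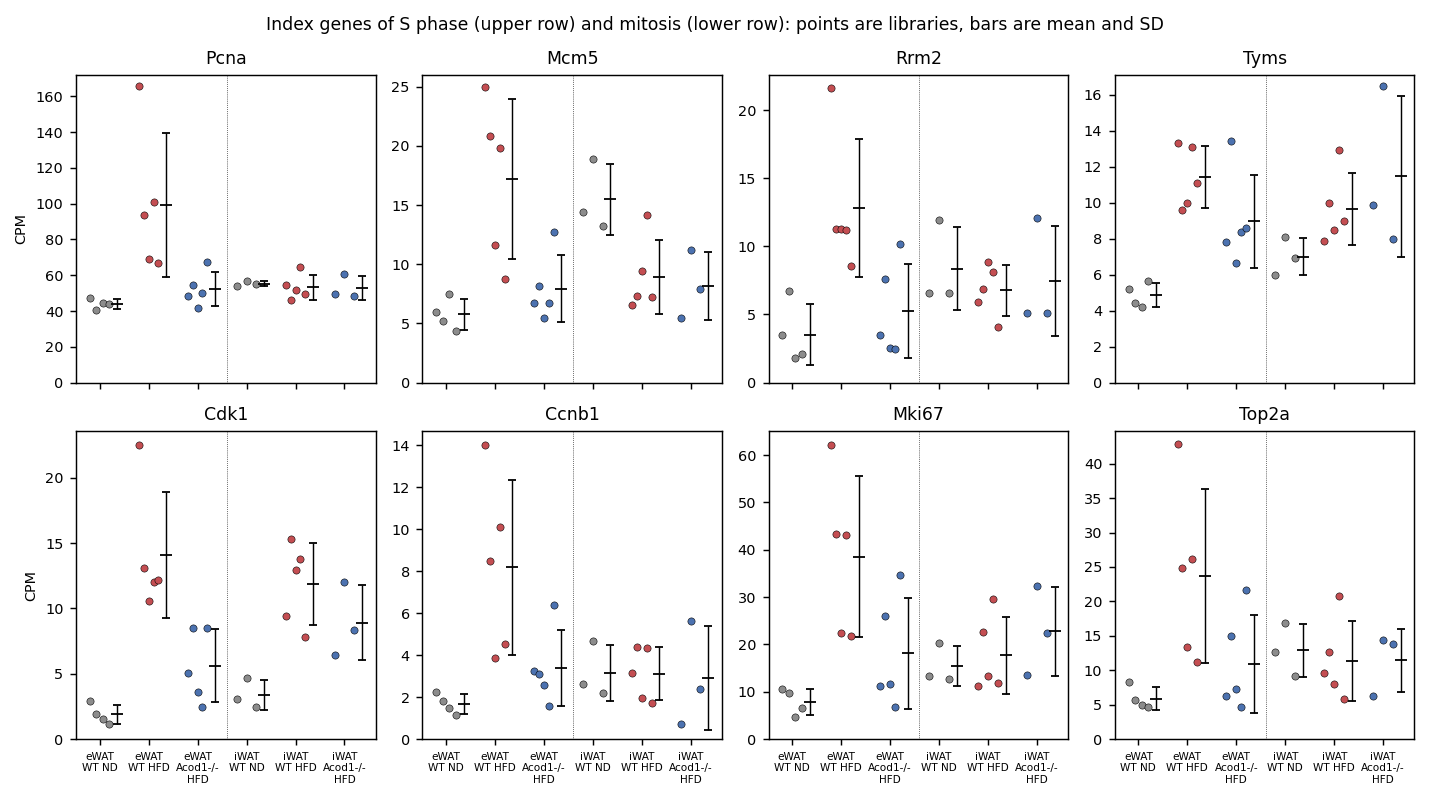
CPM of 4 S phase genes (upper row) and 4 mitosis genes (lower row) in the 6 groups, with a point for each library and the mean and SD beside it. In eWAT the HFD wild type points lie above the ND points in all 8 panels. In iWAT Cdk1 alone of the 8 was called higher on HFD, and Mcm5 alone lower, at an adjusted p under 0.1.

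The genotype comparison in eWAT asks whether the loss of Acod1 altered these genes in mice on the HFD. Of the 40 genes, 22 were lower in Acod1-/- than in wild type mice and none was higher, against 10.8% of all 14936 genes tested that were lower and 9.13% that were higher. All 40 log2 fold changes were negative, from -1.76 (Melk) to -0.08 (Mcm7), with a median of -1.04 over the S phase genes (9 of 12 fell) and -1.10 over the mitosis genes (13 of 28 fell), against 0.044 over all genes tested. The 22 genes that fell are all among the 38 that rose on HFD, and the 2 comparisons share the HFD wild type libraries. The groups were apart in only 4 genes, Tk1, E2f1, Cdk1 and Stmn1, against 4.34% of all genes tested with every Acod1-/- library lower.

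Pcna was at 48.4, 54.3, 41.8, 50 and 67.6 CPM in the 5 Acod1-/- libraries, against the wild type values above, a log2 fold change of -0.92, SE 0.22, adjusted p = 0.0181. Mcm6, a helicase subunit, was at 46.2, 38.3, 21.5, 39.3 and 19.8 CPM in wild type and 13.4, 17.5, 9.67, 11.3 and 24.7 in Acod1-/- libraries (-1.11, SE 0.28, adjusted p = 0.023). Tk1 was at 2.31, 6.86, 4.49, 2.27 and 7.94 CPM in Acod1-/- libraries (-1.56, SE 0.39, adjusted p = 0.0234). In the first 2 genes Acod1-/- library 5 reached into the wild type range, and in Tk1 its 7.94 CPM was just below the lowest wild type value of 8.72.

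Stmn1 was at 12.7, 32.4, 14, 16.5 and 28.1 CPM in Acod1-/- libraries (-1.54, SE 0.34, adjusted p = 0.0158). Melk, a kinase high in dividing cells, was at 6.75, 5.43, 1.71, 6.93 and 2.88 CPM in wild type and 0.921, 1.84, 1.14, 0.615 and 2.48 in Acod1-/- libraries (-1.76, SE 0.45, adjusted p = 0.0256). Plk1, the polo-like kinase of mitotic entry and spindle assembly, was at 8.05, 4.79, 2.19, 4.52 and 2.98 and 1.62, 2.18, 1.14, 1.44 and 2.65 CPM (-1.32, SE 0.36, adjusted p = 0.0319). Wild type library 3 overlapped with Acod1-/- libraries 2 and 5 in Melk and with library 5 in Plk1.

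E2f1 was at 16.8, 13.6, 11.9, 13.8 and 18.7 CPM in Acod1-/- libraries (-0.62, SE 0.17, adjusted p = 0.033), each below the lowest wild type value of 19.3. Cdk1 was at 5.08, 8.5, 3.57, 2.43 and 8.5 CPM (-1.33, SE 0.36, adjusted p = 0.0326), Ccnb1 at 3.26, 3.1, 2.56, 1.58 and 6.37 (-1.28, SE 0.41, adjusted p = 0.0568) and Mcm5 at 6.72, 8.12, 5.42, 6.71 and 12.7 (-1.11, SE 0.30, adjusted p = 0.0305). Rrm2 was at 3.51, 7.58, 2.51, 2.43 and 10.2 CPM (-1.29, SE 0.47, adjusted p = 0.085), with libraries 2 and 5 above the other 3. Ccnb1 and Rrm2 were no longer called without any one of wild type libraries 1 and 4 and Acod1-/- libraries 1, 3 and 4, and Rrm2 also not without wild type library 2 or 3 or ND library 1.

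Mki67, Top2a and Tyms did not pass the test. Mki67 was at 11.3, 25.9, 11.7, 6.84 and 34.7 CPM in Acod1-/- libraries (-1.09, SE 0.43, adjusted p = 0.107), Top2a at 6.27, 14.9, 7.3, 4.6 and 21.6 (-1.11, SE 0.44, adjusted p = 0.109) and Tyms at 7.79, 13.4, 6.62, 8.36 and 8.61 (-0.35, SE 0.19, adjusted p = 0.24). In Mki67 and Top2a libraries 1, 3 and 4 were below every wild type library while libraries 2 and 5 overlapped with them, and over the 40 genes libraries 2 and 5 were the 2 highest Acod1-/- libraries in 35. None of the 2 kinetochore proteins (median -0.965) and the 5 spindle motors and cytokinesis proteins (median -0.87) was called. Of the passenger complex Birc5, Aurkb and Cdca8 all fell (median -1.20), of the 6 spindle assembly factors 4 fell, and of the 4 checkpoint and anaphase-promoting complex genes Ube2c alone fell, by 1.10.

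Outside the 40, 15 of 60 other S phase genes and 18 of 61 other G2 and mitosis genes fell and none rose, led by Cdt1 (log2 fold change -1.40), Gmnn (-1.03) and Hells (-1.02), and by Gas2l3 (-2.29), Kifc1 (-1.38) and Cenpa (-1.25). Of 9 G1 genes 3 fell (Cdk6 by 1.72, Cdk4 by 0.45 and Ccnd1 by 0.92), and of 21 brakes 1 rose and 2 fell, beside 10.8% of all genes tested that fell and 9.13% that rose.

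Macrophage markers again moved with the cell cycle genes, but not in every library. Their summed CPM was 602 to 1720 in Acod1-/- eWAT (11 of 13 fell), and that of lipid-associated macrophage markers 117 to 965 (8 of 8 fell). Acod1-/- library 5 was highest for both sums. Acod1-/- library 2 was lowest for both, at 602 and 117 CPM, although its summed FPKM of mitosis genes, 44.8, was above those of libraries 1, 3 and 4 (22.2 to 25.1). T cell markers were at 9.93 to 15.6 CPM, below all wild type HFD libraries (3 of the 8 tested fell), and adipose progenitor markers at 354 to 490 CPM (2 of the 7 tested fell), while 6 of 10 adipocyte markers rose. Epididymis and germ cell markers were 21 to 1140 CPM in Acod1-/- and 0.137 to 121 in wild type HFD eWAT. The part of any of these cell types in the result was not tested.

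The count moved with single libraries. It was 34 without Acod1-/- library 5, 11 without wild type library 1 or Acod1-/- libraries 1, 3 or 4, and 12 without wild type library 4, and 11 genes (Mcm2, Mcm3, Mcm5, Mcm6, Pcna, Tk1, E2f1, Cdk1, Melk, Plk1 and Stmn1) were called whichever library was left out. Within header number series 1, with 4 libraries a group, 35 genes fell, and with the series as a term 23. The shares of all genes called in these settings are not given here, so the counts are not set against them.

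**Figure D3:**
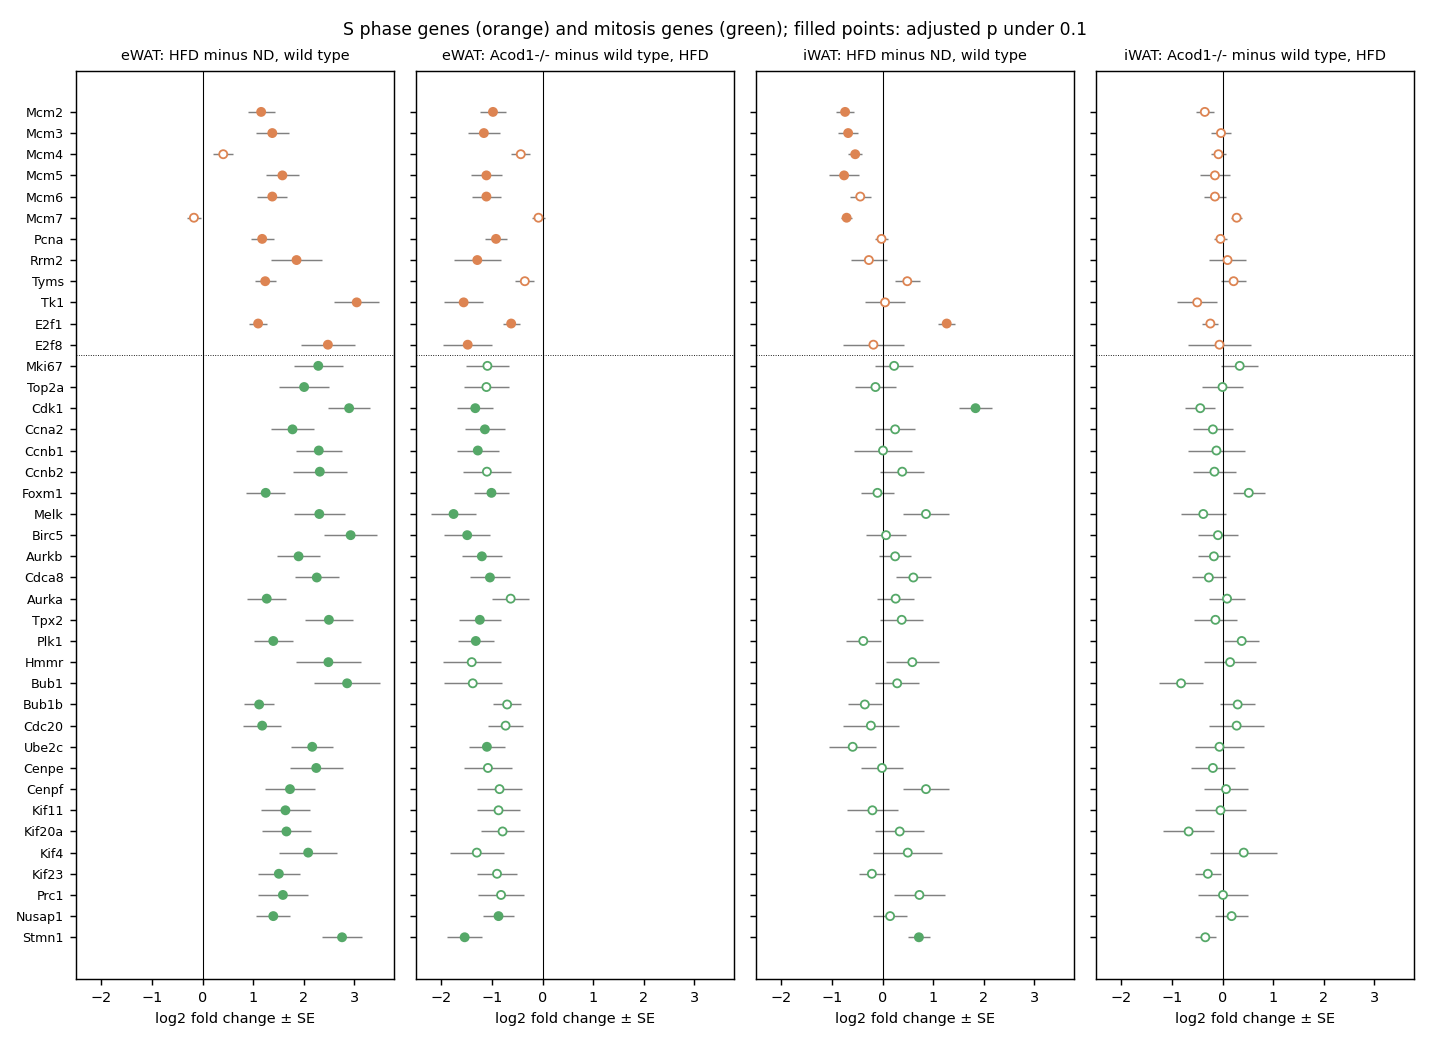
Log2 fold changes with their SE for the 40 genes in 4 comparisons, S phase genes in orange above the dotted line and mitosis genes in green below, filled where the adjusted p was under 0.1. The first panel has 38 filled points to the right of 0, the second 22 to the left, the third 3 to the right and 5 to the left, and the last none.

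The diet comparison in iWAT asks the same of subcutaneous fat. Here 3 of the 40 genes rose (E2f1, Cdk1 and Stmn1) and 5 fell, all of them helicase subunits (Mcm2, Mcm3, Mcm4, Mcm5 and Mcm7), against 25.9% of all 14801 genes tested that rose and 24.2% that fell. In either direction 8 of the 40 genes were called, against 50.1% of all genes tested. The median log2 fold change was -0.355 over the S phase genes and 0.25 over the mitosis genes, against 0.004 over all genes tested.

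E2f1 was at 6.63, 4.44 and 6.15 CPM in the 3 ND libraries and 13.6, 14.1, 14.6, 12.7 and 12.8 in the 5 HFD wild type libraries, a log2 fold change of 1.27, SE 0.17, adjusted p = 0.000282. Cdk1 was at 3.05, 4.65 and 2.43 CPM on ND and 9.45, 15.3, 12.9, 13.8 and 7.84 on HFD (1.84, SE 0.32, adjusted p = 0.00117). In both genes all 5 HFD libraries were above all 3 ND libraries. Stmn1 was at 11.6, 14.8 and 14.9 and 22.9, 24.2, 20.9, 28.4 and 14.3 CPM (0.72, SE 0.21, adjusted p = 0.0211), HFD library 5 lying within the ND range, and with the header number series as a term its log2 fold change was 0.29 (adjusted p = 0.379). These 3 genes rose in both depots.

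Mcm7 was at 35.9, 43.2 and 33 CPM on ND and 20.1, 23.1, 22.5, 23.4 and 22.4 on HFD (-0.71, SE 0.11, adjusted p = 0.000717). Mcm2 was at 12.9, 15.4 and 12.5 and 7.45, 8.2, 9.12, 8.22 and 6.9 CPM (-0.74, SE 0.18, adjusted p = 0.00722), and Mcm4 at 25.2, 28.5 and 20.7 and 18.2, 15.8, 18.1, 14.1 and 16.8 CPM (-0.54, SE 0.14, adjusted p = 0.0105). In all 3, as in Mcm3 (-0.68), the 5 HFD values all lay under the 3 ND values. This held for only these 4 of the 40 genes, against 24.1% of all genes tested. Mcm5 was at 14.4, 18.9 and 13.2 and 6.52, 7.34, 9.42, 14.2 and 7.22 CPM (-0.76, SE 0.29, adjusted p = 0.0555), HFD library 4 lying within the ND range. It was no longer called without ND library 2 (adjusted p = 0.201), without HFD libraries 1, 2 or 5, or with the series as a term. The remaining subunit, Mcm6, had a log2 fold change of -0.44, SE 0.21, adjusted p = 0.106. Mcm2, Mcm3 and Mcm5 thus fell in iWAT and rose in eWAT.

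The other index genes did not pass the test. Pcna was at 53.8, 56.8 and 55.3 CPM on ND and 54.7, 46.4, 51.5, 64.4 and 49.5 on HFD (-0.02, SE 0.12, adjusted p = 0.899). Rrm2 was at 6.59, 11.9 and 6.6 and 5.92, 6.9, 8.87, 8.12 and 4.08 CPM (-0.27, SE 0.35, adjusted p = 0.564), and Tyms at 6, 8.08 and 6.92 and 7.85, 9.99, 8.46, 12.9 and 8.98 CPM (0.49, SE 0.25, adjusted p = 0.141). The groups overlapped in all 3. Ccnb1 was at 2.6, 4.65 and 2.18 and 3.17, 4.38, 1.95, 4.32 and 1.7 CPM (0.01, SE 0.57, adjusted p = 0.989), Mki67 at 13.4, 20.2 and 12.7 and 11.1, 22.6, 13.4, 29.6 and 11.8 (0.23, SE 0.37, adjusted p = 0.64) and Top2a at 12.7, 16.8 and 9.15 and 9.6, 12.7, 7.98, 20.8 and 5.8 (-0.14, SE 0.40, adjusted p = 0.796). HFD library 4 was the highest of its group in 25 of the 40 genes. Ube2c, the ubiquitin-conjugating enzyme of the anaphase-promoting complex, was at 16.5 CPM in ND library 1 and 2.98 and 3.47 in the others, and was named after its values were seen.

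Lymphocyte and lymph node genes fell between the diets along with the helicase genes. The CPM summed over 7 B cell markers was 569 to 873 in ND iWAT and 5.68 to 89.2 in HFD wild type iWAT (7 of 7 fell), and over 9 T cell markers 335 to 541 and 12.4 to 96.8 (9 of 9 fell). Over 10 lymph node and germinal centre markers it was 333 to 544 and 9.81 to 32.5 (7 of the 8 tested fell and S1pr2 rose), none being at 0 throughout either group. ND library 2, highest for these 3 sums, was also the highest ND iWAT library for 29 of the 40 cell cycle genes. HFD library 5 had the highest B and T cell sums of its group, 89.2 and 96.8 CPM. Its CPM sums over the S phase and mitosis genes, 152 and 101, were the lowest of that group. Macrophage markers rose in 10 of 13 and endothelial markers in 7 of 7, and skeletal muscle markers fell in 6 of 7. All 3 ND libraries were high in lymphocyte markers, so lymphoid tissue and diet cannot be told apart in this comparison.

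In the other lists for iWAT, 10 of 61 other S phase genes rose and 17 fell, led by Pold1 (log2 fold change -1.48), Msh6 (-0.97) and E2f2 (-2.03). Of 59 other G2 and mitosis genes 12 rose and 10 fell, with Smc4 at -0.94, Spc25 at 2.73 and Anln at 1.19. Of all genes tested 25.9% rose and 24.2% fell, so these counts are near or below the shares of all genes. Of 20 brakes 3 rose and 9 fell, among them Cdkn1b, the p27 inhibitor of cyclin-dependent kinases, by 1.32. Each library left out in turn gave 7 to 10 of the 40 genes, and Mcm2, Mcm3, Mcm4, Mcm7, E2f1, Cdk1 and Stmn1 were called in each case.

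**Figure D4:**
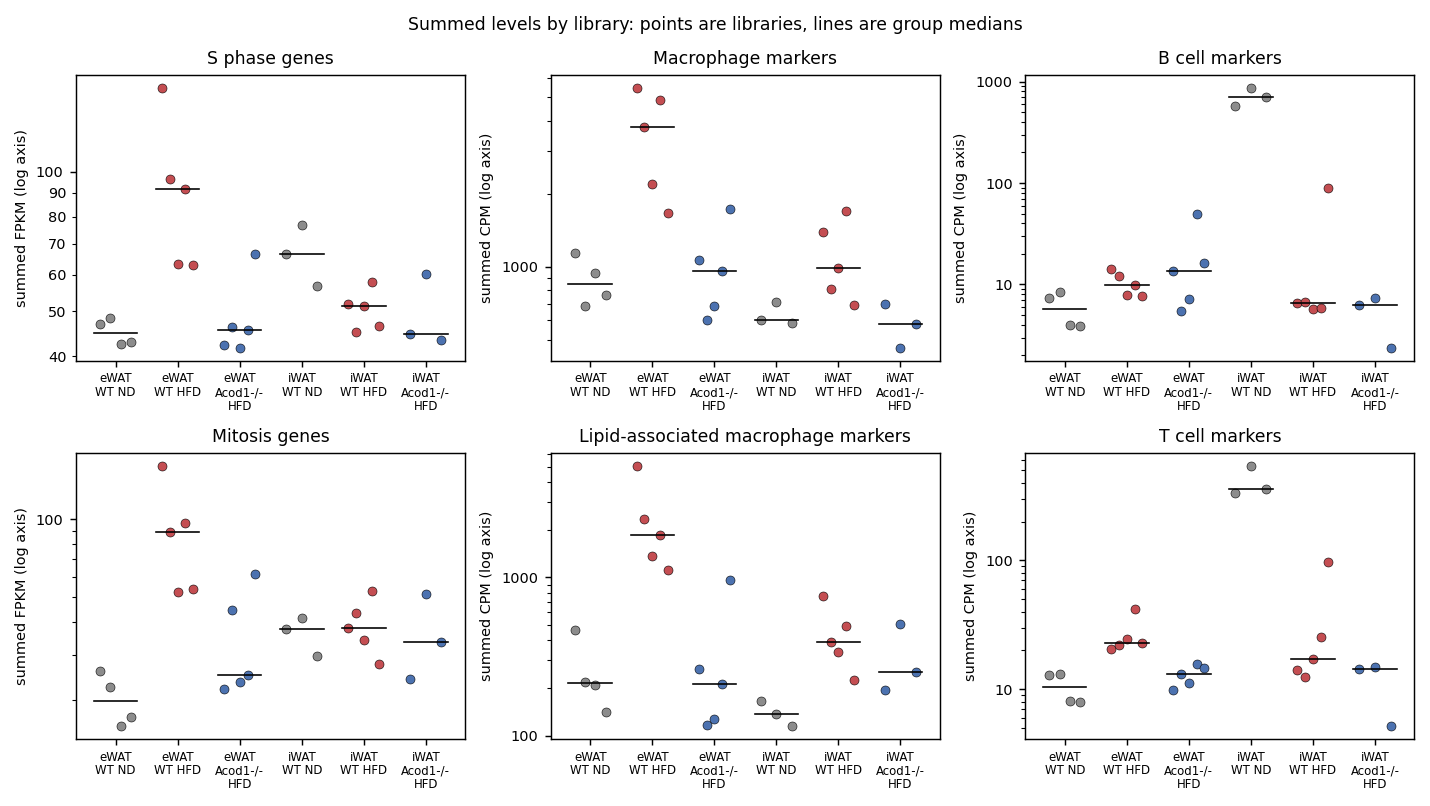
Levels summed over the S phase genes and mitosis genes (FPKM) and over 4 marker lists (CPM) in each library, on log axes, with a line at each group's median. HFD wild type eWAT libraries 1, 2 and 4 are the highest of the 25 for both cell cycle sums and for macrophage markers, libraries 3 and 5 of that group overlap with other groups in the cell cycle sums, and the ND iWAT libraries, 569 to 873 CPM of B cell markers, have the highest S phase median of iWAT.

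The genotype comparison in iWAT called none of the 40 genes in edgeR's quasi-likelihood test, which also called 0% of all 14801 genes. DESeq2's Wald test called none of the 40 either, and its share of all genes is not given here. The authors' own DESeq2 analysis reported iWAT genes that rose on the HFD and were rescued by Acod1 loss, at an adjusted p under 0.1. In edgeR, 1 of the 40 had an unadjusted p under 0.05. It was Mcm7, of which Acod1-/- libraries had 26.9, 30.7 and 24.8 CPM (0.28, SE 0.11, adjusted p = 0.251). Over all genes tested, 16.6% had an unadjusted p under 0.05. Mcm7 was called when Acod1-/- library 3 was left out. Every Acod1-/- library lay above every wild type library for 1 of the 40 genes, Mcm7, against 3.66% of all genes tested. The Acod1-/- libraries all lay below for 1, E2f1, at 11.1, 12.6 and 11.3 CPM (-0.24, SE 0.16, adjusted p = 0.473), against 4.59%. The median log2 fold change was -0.07 over the S phase genes and -0.075 over the mitosis genes.

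The Acod1-/- iWAT libraries differed among themselves. Mki67 was at 13.6, 32.3 and 22.4 CPM (0.34, SE 0.36, adjusted p = 0.688), Top2a at 6.2, 14.4 and 13.8 (adjusted p = 0.997) and Cdk1 at 6.43, 12 and 8.32 (-0.44, SE 0.30, adjusted p = 0.487). Ccnb1 was at 0.72, 5.62 and 2.38 CPM, Mcm5 at 5.45, 11.2 and 7.88, Pcna at 49.3, 60.8 and 48.6, Rrm2 at 5.12, 12.1 and 5.07 and Tyms at 9.87, 16.5 and 7.98. Library 2 was highest in 33 of the 40 genes, with a summed mitosis FPKM of 51.5, and it is also the library with skin epithelium markers at 574 CPM against 6.84 and 11.1 in libraries 3 and 1. Its macrophage marker sum of 463 CPM was the lowest of the 25 libraries. The part of skin tissue in its values was not tested. The precision differed by gene, with an SE of the log2 fold change of 0.12 for Pcna, 0.36 for Mki67 and 0.57 for Ccnb1.

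The depots were compared within each group, as eWAT minus iWAT. On ND, 9 of the 40 genes were lower in eWAT than in iWAT and 1, E2f1, was higher, against 14.2% and 17.5% of all 15034 genes tested in a fit of the 25 libraries. The 9 are Mcm2, Mcm3, Mcm4, Mcm5, Rrm2, Tk1, Birc5, Ube2c and Kif23, by 0.62 to 1.69 on the log2 scale. The largest difference, that of Ube2c, came with 16.5 CPM in ND iWAT library 1. ND iWAT libraries 2 and 3 had 2.98 and 3.47 CPM of Ube2c, and ND eWAT libraries 1.89 to 3.4. That fit took no libraries as pairs. With same-numbered libraries of the 2 depots taken as pairs in every group, the HFD groups included, 15 genes were called. A fit of the groups compared alone called 20. The shares of all genes called in these alternative fits are not given here. The lymphocyte markers that were high in ND iWAT also separate these groups (7 of 7 B cell and 9 of 9 T cell markers lower in eWAT), and without ND iWAT library 2 the count was 5 (Mcm2, Mcm5, Tk1 and Ube2c lower, E2f1 higher). In HFD wild type mice 25 genes were higher in eWAT and none lower, against 10.8% of all genes tested that were higher and 7.75% that were lower, with a median of 0.93 over the S phase genes (9 of 12) and 1.06 over the mitosis genes (16 of 28). E2f1 (0.76, SE 0.15), Pcna (0.90, SE 0.18) and Stmn1 (1.44, SE 0.30) had the smallest adjusted p. Macrophage markers were higher in eWAT too (11 of 13), as were mesothelial markers (6 of 6), and endothelial markers were lower (6 of 7), and their part in the result was not tested. The count of 25 fell to 9 without HFD wild type eWAT library 1, to 11 without iWAT library 3 or 5 of that group, and to 15 without its eWAT library 4 or iWAT library 1.

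In HFD Acod1-/- mice none of the 40 genes differed between the depots in edgeR's quasi-likelihood test or DESeq2's Wald test, none had an unadjusted p under 0.05 either, against 13.9% of all genes tested, and the median log2 difference was 0.015. In edgeR, at an adjusted p under 0.1, 2.01% of all genes tested were higher and 1.80% lower in eWAT. The share for DESeq2 is not given here.

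The difference between depots in the response to diet was tested as an interaction. The HFD change was more positive in eWAT than in iWAT for 30 of the 40 genes and for none more negative, against 14.0% and 15% of all genes tested. These were 11 of 12 S phase and 19 of 28 mitosis genes, led by Mcm2 (difference of log2 fold changes 1.93, SE 0.34), Mcm5 (2.37, SE 0.45) and Tk1 (3.02, SE 0.60). Not called were E2f1 (-0.14), Cdk1 (1.09), Melk, Aurka, Hmmr, Cdc20, Cenpf, Kif20a, Kif4 and Prc1. The ND iWAT libraries with their lymphocyte markers enter this difference too, and 7 of 7 B cell and 9 of 9 T cell markers were called in it. The count was 21 without ND iWAT library 2 and 30 with the header number series as a term.

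The genotype difference between depots was negative, that is lower in eWAT, for all 40 genes, with a median of -0.945 over the S phase and -1.05 over the mitosis genes, against 0.015 over all genes tested. None was called by edgeR at an adjusted p under 0.1, against 0.00665% of all genes tested that were lower, and the smallest adjusted p was 0.307 (Pcna and Plk1). At an unadjusted p under 0.05 in edgeR there were 14 of the 40, against 10.1% of all genes tested. DESeq2's Wald test called none of the 40, and its share of all genes is not given here. The eWAT genotype result is therefore not shown to differ from that in iWAT.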

How the data were processed

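Whole epididymal and inguinal fat pads were sequenced in 25 libraries. The authors trimmed reads with cutadapt, dropping those under 18 bp, aligned them to the mouse genome (GRCm38) with STAR 2.4.2a and deposited raw counts per gene together with FPKM. Genes with no mapped symbol (29) were not named, and reads outside genes (6.41% to 11.88%) or ambiguous (1.52% to 2.07%) stayed out of library sizes. From the deposited counts, genes averaging 1 CPM or more over the libraries fitted were tested with edgeR 4.0.16 (TMM, quasi-likelihood, R 4.3.3), with 3 groups per depot or all 25 libraries for depot comparisons, p-values being adjusted over all genes (Benjamini-Hochberg) and called under 0.1. The authors' own analysis used DESeq2, and DESeq2 1.42.0 was run as an alternative. The SE is the log2 fold change divided by the square root of F. Deposited FPKM, scaled to counted reads without TMM, served for levels between genes. They also served, with no test, for the summed S phase and mitosis levels of groups and libraries. The members and lists were chosen with earlier results of these data known. Values per library were given for 8 index genes and, per comparison and direction, for the 3 called S phase and 3 called mitosis genes with the smallest adjusted p, and other lists name at most 3 genes by the same order. No pair of libraries in a group agreed within sampling noise (lowest chi-square per degree of freedom 33.7).

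Library numbers were checked as pairs by correlating deviations from group means over 5000 genes. Same-numbered ND libraries of eWAT and iWAT correlated at 0.27 to 0.62, over 0.1 in 3 of 3, and were taken as paired from the data, the labels not stating it. The main depot fits still took all libraries as independent, and only the replicate block used pairs. In HFD wild type mice same-numbered libraries correlated at -0.20 to 0.70, over 0.1 in 4 of 5. In Acod1-/- mice it was -0.24 to 0.34, over 0.1 in 2 of 3. As some pairs were negative, the HFD libraries were not taken as paired, though a part of them may be. The file headers carry 2 number series, whose meaning is not given in the sources used here, with 14 and 11 libraries. Alternatives were other size factors, filters, thresholds and tools, the replicate block, the series and each library left out. The tests were checked on simulated data.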

Additional observations from a re-analysis of the deposited data

Results flagged for a closer look

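In eWAT of HFD wild type mice, library 1 stood apart from the other 4 by Dixon's test for Cdk1, at 22.5 CPM, and for Rrm2, at 21.6 CPM. In eWAT of HFD Acod1-/- mice, library 1 stood apart below the others for Mcm4, at 10.6 CPM. These are 3 of 72 groups of libraries tested over 18 named genes, and chance alone marks about 1 in 20.

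The response to the HFD differed between eWAT and iWAT for 30 of the 40 genes, by the interaction term of edgeR's quasi-likelihood test. Among named S phase genes the difference of log2 fold changes, eWAT minus iWAT, was 1.93 for Mcm2, 0.99 for Mcm4, 2.37 for Mcm5, 1.86 for Mcm6, 0.58 for Mcm7, 1.23 for Pcna, 2.16 for Rrm2, 0.77 for Tyms and 3.02 for Tk1. Among named mitosis genes it was 2.09 for Mki67, 2.19 for Top2a, 2.32 for Ccnb1, 2.90 for Birc5, 1.81 for Plk1 and 2.08 for Stmn1.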

How the results depend on the processing

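Of 654 alternatives over 29 gene results, 631 left direction and call as they were, 23 lost the call and none reversed. Of 261 alternatives for the counts of called genes, 239 stayed within 1.5 times. At an adjusted p under 0.05, genotype in eWAT called 12 genes and the depot difference in HFD wild type mice 12, and with no filter on low counts the latter called 13. In HFD libraries of header number series 1 alone, genotype in eWAT called 35, the depot difference in HFD Acod1-/- mice 1 and the depot difference in genotype effect 3. Fitting only the groups compared, the depot difference on ND called 20. With DESeq2's Wald test genotype in eWAT called 31. The shares of all genes called are not given here for any alternative or library left out, so these counts are not set against them. The cause of these shifts was not tested.

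With the replicate block the depot difference on ND, where the numbers pair the libraries, called 15 genes against 10, and the depot difference in genotype effect 6 against 0, in groups whose numbers were not shown to pair. For the other depot comparisons it gave 29 (depot in HFD wild type), 0 (depot in HFD Acod1-/-) and 32 (depot by diet). In the diet and genotype comparisons within a depot, the block was instead a term for the library number. That term ties same-numbered libraries of different mice, so it checks no pairing. It gave 38 and 21 genes in eWAT and 8 and 0 in iWAT.

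Leaving out each library in turn gave 38 to 39 genes for diet and 11 to 34 for genotype in eWAT, 7 to 10 and 0 to 1 in iWAT, 5 to 12, 9 to 30 and 0 to 0 for the depots in ND, HFD wild type and HFD Acod1-/- mice, 21 to 33 for depot by diet and 0 to 3 for depot by genotype (3 without Acod1-/- eWAT library 5). With 3 libraries in ND and Acod1-/- iWAT and genes near 1 CPM, such as Bub1, small changes could not be resolved.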
